A study of Arabidopsis thaliana with 4 samples.

Results

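The 10 starch synthesis enzymes described here were chosen by gene identifier from the deposited expression table, and all 10 were found among its 32538 genes. They are plastid phosphoglucomutase (PGMP), the small subunit ADG1 and the large subunits APL1 and APL3 of ADP-glucose pyrophosphorylase (AGPase), the granule-bound starch synthase GBSS1, the soluble starch synthases SS1 to SS4 and the branching enzyme SBE2.2. The libraries were made from poly(A)-selected RNA of hypocotyls, the seedling stems below the cotyledons, of Arabidopsis thaliana. Seeds had germinated for 24 hours on MS medium, and the seedlings were then kept in darkness at 22 °C and were labelled as 5 days old when the hypocotyls were cut off. The series compared wild type Col-0, with 2 libraries, and shr-2, a mutant of the transcription factor gene SHORT-ROOT (SHR), also with 2 libraries. All 4 libraries have Col-0 in the ecotype field. The titles of the mutant libraries give shr-2, but their genotype field gives a transgenic line, SCL28-OX #10, and the groups here follow the titles. Only 1 mutant allele of SHR was used.

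Starch is made inside plastids from hexose phosphate. PGMP converts glucose 6-phosphate to glucose 1-phosphate, AGPase turns this into ADP-glucose in the step that commits carbon to starch, the soluble synthases lengthen the glucan chains of amylopectin, branching enzymes add its branches, and GBSS1 makes amylose within the granule. In shoots, the endodermis around the vascular cylinder is also called the starch sheath, because its starch-filled plastids settle under gravity and start the gravitropic bend of the stem. SHR and its partner SCARECROW (SCR) specify this layer, and plants without either gene lack a normal endodermis in root and shoot.

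The upstream sequences of the 3 genes with the largest changes are shown, a choice made on the size of the change only. Each is the 250 bases before the annotated RefSeq gene start in TAIR10.1, read 5′ to 3′ on the strand of the gene, and capitals mark matches to the motifs named below.
GBSS1, minus strand, chr1:11923867-11924116: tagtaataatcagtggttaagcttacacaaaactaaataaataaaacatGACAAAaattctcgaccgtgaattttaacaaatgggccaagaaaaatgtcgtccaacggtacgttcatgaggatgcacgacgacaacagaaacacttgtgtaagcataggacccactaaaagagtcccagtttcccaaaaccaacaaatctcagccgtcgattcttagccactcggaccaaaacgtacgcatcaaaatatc
APL3, plus strand, chr4:18259297-18259546: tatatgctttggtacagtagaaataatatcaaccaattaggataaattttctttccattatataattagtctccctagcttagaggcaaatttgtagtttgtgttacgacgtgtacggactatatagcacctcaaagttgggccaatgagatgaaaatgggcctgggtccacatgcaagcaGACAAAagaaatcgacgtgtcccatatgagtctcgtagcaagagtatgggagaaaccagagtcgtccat
PGMP, minus strand, chr5:21068328-21068577: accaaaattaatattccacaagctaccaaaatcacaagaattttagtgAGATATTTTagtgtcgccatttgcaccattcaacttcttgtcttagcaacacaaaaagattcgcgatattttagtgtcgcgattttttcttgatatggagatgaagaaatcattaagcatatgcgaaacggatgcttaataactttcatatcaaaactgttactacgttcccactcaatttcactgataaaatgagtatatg
A small set of motifs was searched on both strands in the same window of all 10 genes, and no matches of different motifs overlapped. The core bound by INDETERMINATE DOMAIN (IDD) zinc fingers, the protein family of the SHR and SCR partners, was searched as TTTGTC and was present upstream of GBSS1, APL3 and APL1, against 24.1% of 27443 protein-coding genes. The evening element AAAATATCT, a clock-associated motif, was present upstream of PGMP, against 2.36% of genes. The I-box GATAAG, first described in light-regulated plant promoters, was present upstream of SS2, against 12.3% of genes. The G-box CACGTG, bound by bZIP and bHLH factors that include those of light signalling, was present upstream of SS1, SS3 and SS4, against 6.49% of genes. Its 4 matches are shown with up to 10 bases on either side, capitals marking the G-box, so that the pair upstream of SS4 can be seen. GBSS1, PGMP, APL3 and ADG1, which also rose, had no match to it in this window. Any link between these motifs and the changes was not tested.
SS1, chr5:8266400-8266425, plus strand: cactaatttaCACGTGgcacaatatg
SS3, chr1:3951116-3951134, plus strand: ttcCACGTGatttgtttaa
SS4, upstream match, chr4:10081994-10082019, plus strand: gcttagaataCACGTGgcgtaaccac
SS4, downstream match, chr4:10082007-10082032, plus strand: gtggcgtaacCACGTGacttttatct
The pair of matches upstream of SS4 begins 104 and 91 bases before the gene start. These matches are descriptions of the letters, and no binding was measured.

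The labels were checked first. SHR fell from 28.7 ± 0.396 FPKM (fragments per kilobase of transcript length and per mapped library size; mean ± SD, n = 2 here and below) in Col-0 to 3.01 ± 0.625 FPKM in shr-2 (limma, adjusted p = 0.00049). SCL28, a gene of the same GRAS family as SHR that the genotype field of the mutant libraries names, read 5.12 ± 0.168 and 5.69 ± 0.168 FPKM (limma, adjusted p = 0.412). Root tip stands in another label field, but of 9 root markers, among them PLT1, PLT2 and WOX5, none exceeded 0.345 FPKM in any library. All 9 endodermis markers fell (limma, adjusted p under 0.05), where 13.7% of all tested genes were called lower. Their summed FPKM went from 573 and 694 in the Col-0 libraries to 20.7 and 22.7 in the shr-2 libraries. None of the 9 was at 0 in any library. The authors' deposited table called 6 of the 9 lower, where 12.2% of its tested genes were. It did not call CASP1, CASP4 and PER64 (q = 0.285, 0.182 and 0.381). In whole hypocotyls, fewer cells of a type and less RNA per cell cannot be told apart. Across genes, Pearson r was 0.984 between the Col-0 replicates, 0.981 between the shr-2 replicates and 0.900 to 0.911 between genotypes. No read totals were used here, but low values fell near steps worth about 0.0372 to 0.0409 FPKM per fragment in a transcript of 1 kb. The search window limits that estimate, which puts the lowest member, GBSS1 in Col-0, at about 60 fragments in each library.

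Most of the 10 transcripts were higher in shr-2 than in the wild type. Of the 10 genes, all of which averaged 1 FPKM or more and were tested, 7 rose, 0 fell and 3 did not pass (limma on log2 of FPKM + 1, Benjamini-Hochberg adjusted p under 0.05 over 19920 genes). Among all tested genes, 27.6% were called, 13.9% higher and 13.7% lower. The 10 genes were chosen with earlier results of these data known, so their count beside these shares is a description. The median log2 fold change of the 10 genes was 0.56, against 0.01 over all tested genes, and the range was 0.16 to 2.05. In all 10 genes both shr-2 libraries lay above both Col-0 libraries, an arrangement found in 33.9% of tested genes, while 32.2% had both below. The 3 largest increases were those of GBSS1, PGMP and APL3. In the authors' deposited table the same 7 genes were called higher and 0 lower, where 24.8% of the 21844 tested genes were called, 12.6% higher and 12.2% lower. The summed FPKM of the 10 genes was 159 and 170 in Col-0 and was 282 and 278 in shr-2.

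**Figure D1:**
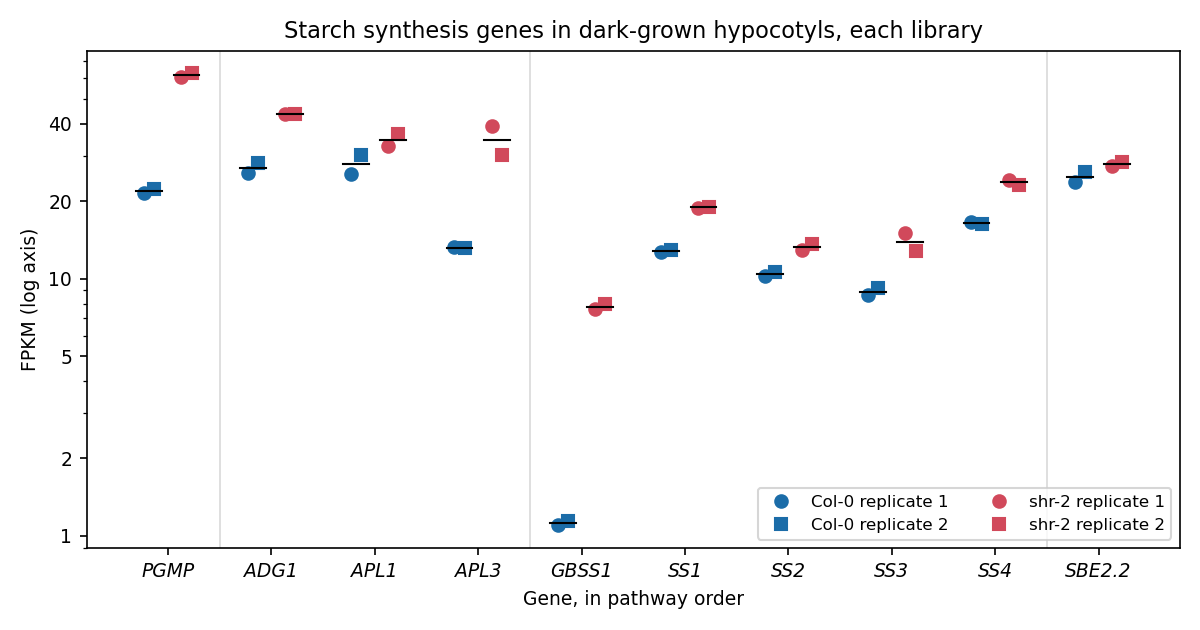
FPKM (log axis) of each of the 10 genes in each library, in pathway order, with Col-0 in blue, shr-2 in red, replicate 1 as circles, replicate 2 as squares and the mean of 2 libraries as a black line. Both red symbols lie above both blue symbols for every gene, with the widest gap at GBSS1, from 1.12 to 7.78 FPKM.

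PGMP (AT5G51820, chromosome 5, 21063298 to 21068327, minus strand, 22 exons) stands at the entrance of the pathway, and plants without it make almost no starch. It read 21.6 and 22.2 FPKM in the Col-0 libraries and 60.7 and 62.7 FPKM in the shr-2 libraries. The replicates lay close together and the genotypes far apart. The ratio of means was 2.82, and the limma log2 fold change was 1.45 (SE 0.09, adjusted p = 0.000901). PGMP ranked below APL1, ADG1 and SBE2.2 by level in Col-0 and was the highest of the 10 genes in shr-2. The cytosolic counterparts of this enzyme, which do not supply the plastid directly, passed with all libraries but in none of the 4 fits with 1 library left out (limma, adjusted p 0.06 to 0.117 for PGM2 and 0.0679 to 0.137 for PGM3). PGM2 read 35.9 ± 2.25 FPKM in Col-0 and 50.8 ± 2.48 FPKM in shr-2 (log2 fold change 0.49 in limma, adjusted p = 0.0209). PGM3 read 56.3 ± 5.20 and 77.8 ± 0.879 FPKM (log2 fold change 0.46 in limma, adjusted p = 0.0284). The difference between the change of PGMP and those of PGM2 and PGM3, which were named after their values were seen, was not tested.

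AGPase is built of small and large subunits, and ADG1 encodes the small subunit on which activity in leaves depends. ADG1 (AT5G48300, chromosome 5, 19570238 to 19572804, plus strand, 8 exons) read 25.7 and 28.0 FPKM in Col-0 and 43.5 and 43.6 FPKM in shr-2. The lower shr-2 library was well above the higher Col-0 library. Its ratio of means was 1.62, with a log2 fold change of 0.68 in limma (SE 0.09, adjusted p = 0.00687). This call was lost without Col-0 replicate 1 (limma, adjusted p = 0.0573) and ranged from 0.034 to 0.0573 over the fits with 1 library left out. APS2, annotated as a second small subunit, was at 2.16 ± 0.249 and 1.34 ± 0.0931 FPKM (limma, adjusted p = 0.0749).

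The large subunits modulate AGPase, APL1 being the main form in leaves and APL3 a form associated with sugar-fed and non-photosynthetic tissue. APL3 (AT4G39210, chromosome 4, 18259547 to 18263468, plus strand, 15 exons) read 13.3 and 13.1 FPKM in Col-0 and 39.1 and 30.2 FPKM in shr-2. The shr-2 libraries differed from each other more than the Col-0 libraries did, but both were above them. The ratio of means was 2.63, and the limma log2 fold change was 1.32 (SE 0.14, adjusted p = 0.00377). APL1 (AT5G19220, chromosome 5, 6463824 to 6466831, minus strand, 15 exons) read 25.4 and 30.1 FPKM in Col-0 and 32.9 and 36.4 FPKM in shr-2. The genotypes did not overlap, but the gap between them was small beside the spread of the replicates. APL1 did not pass (log2 fold change 0.31 in limma, adjusted p = 0.123), with an unadjusted 95% interval from 0.00066 to 0.62. The non-coding AT5G19221 overlaps APL1 by 2386 bases on the opposite strand, and read 2.97 and 3.23 FPKM in Col-0 and 11.5 and 10.6 FPKM in shr-2. The kit kept strand, but no source used here states that the counting did, so reads of this pair may not have been told apart.

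APL3 held a larger share of the large subunit transcripts in shr-2 than in Col-0, and APL1 a smaller one. APL3 supplied 25.2% and 21.9% of the summed FPKM of APL1 to APL4 in Col-0 and 43.5% and 35.7% in shr-2. The share of APL1 was 48.3% and 50.3% in Col-0 and 36.5% and 43.1% in shr-2. That of APL4 was 13.6% and 11.9% in Col-0 and 7.96% and 7.73% in shr-2. The genotypes did not overlap in any of these 3 shares, whereas the share of APL2 overlapped, at 12.95% and 15.9% against 12.1% and 13.5%. The sum of large over the sum of small subunits was level, with ratios of 1.90 and 1.98 in Col-0 and 2.01 and 1.88 in shr-2. With 2 libraries against 2, an exact permutation test of a share cannot give a 2-sided p under 0.333, which is the exact p of each share without overlap here. Adjusted over the 12 family shares and ratios computed, the exact p of these is 0.571. APL3 is 84.0% identical to APL4 over 1590 bases of transcript, the closest match of any member outside its own locus.

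GBSS1 (AT1G32900, chromosome 1, 11920390 to 11923866, minus strand, 13 exons) showed the largest change. It read 1.1005 and 1.14 FPKM in Col-0 and 7.64 and 7.93 FPKM in shr-2. No other member was as low in either genotype. The ratio of means was 6.94, and the log2 fold change of FPKM + 1, which understates the change of a gene at this level, was 2.05 in limma (SE 0.11, adjusted p = 0.000744). Against the summed FPKM of SS1 to SS4, GBSS1 stood at 2.29% and 2.34% in the Col-0 libraries and at 10.8% and 11.6% in the shr-2 libraries. Nearness to GBSS1 was measured on log2 of FPKM + 1, centred over the 4 libraries. The 3 nearest tested genes were AT5G47260 (distance 0.07), CAS (0.08) and CURT1A (0.08). On this scale a gene as low as GBSS1 can lie near genes with a smaller ratio of means, here 4.52 for CAS and 4.34 for CURT1A. CAS, a calcium-sensing protein of thylakoids, read 16.7 and 17.7 FPKM in Col-0 and 75.6 and 79.6 FPKM in shr-2. CURT1A, which bends thylakoid membranes, read 55.5 ± 0.358 and 241 ± 16.2 FPKM. AT5G47260 was listed at 0 in both Col-0 libraries, and its shr-2 libraries gave 3.30 and 3.26 FPKM. Likeness over 4 libraries is a description of these values only.

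Of the 4 soluble synthases 3 rose, and SS2 did not pass. SS1 (AT5G24300, chromosome 5, 8266566 to 8271205, plus strand, 15 exons), which makes the short chains of amylopectin, read 12.6 and 12.9 FPKM in Col-0 and 18.9 and 19.0 FPKM in shr-2. Its ratio of means was 1.48 (log2 fold change 0.53 in limma, SE 0.09, adjusted p = 0.0123). SS4 (AT4G18240, chromosome 4, 10082108 to 10087203, plus strand, 16 exons), which is needed to start granules in normal number, read 16.6 and 16.3 FPKM in Col-0 and 24.2 and 23.1 FPKM in shr-2. Among SS1 to SS4 it was the highest in every library, with a ratio of means of 1.44 (log2 fold change 0.50 in limma, SE 0.09, adjusted p = 0.0156). SS3 (AT1G11720, chromosome 1, 3951366 to 3957044, plus strand, 16 exons), which makes long amylopectin chains, read 8.63 and 9.18 FPKM in Col-0 and 15.0 and 12.8 FPKM in shr-2. The genotypes did not overlap although the shr-2 replicates of SS3 were apart, and the ratio of means was 1.56 (log2 fold change 0.58 in limma, SE 0.12, adjusted p = 0.0211). The non-coding AT1G04873 overlaps 240 bases of SS3 on the opposite strand and read 8.40 and 9.56 FPKM in Col-0 and 12.5 and 11.7 FPKM in shr-2, so the assignment of these reads again depends on strand. SS2 (AT3G01180, chromosome 3, 62245 to 66111, minus strand, 8 exons), which makes chains of intermediate length, read 10.2 and 10.6 FPKM in Col-0 and 12.9 and 13.6 FPKM in shr-2. The test of SS2 gave no call (log2 fold change 0.33 in limma, adjusted p = 0.0600), with an unadjusted 95% interval from 0.08 to 0.57.

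The calls of SS1, SS3 and SS4 were the least secure of the 7. With 1 library left out, SS1 did not pass in any of the 4 fits (limma, adjusted p 0.0635 to 0.0871), nor did SS4 (limma, adjusted p 0.0639 to 0.0941). SS3 passed only without shr-2 replicate 2 (limma, adjusted p 0.0412, and 0.097 to 0.128 in the other fits). GBSS1, PGMP and APL3 passed in all 4 such fits. Fewer members, and fewer of all tested genes, rose in each of these fits than with all 4 libraries. Within the soluble family the make-up was nearly level. SS4 supplied 33.9 ± 0.799% of the summed FPKM in Col-0 and 33.9 ± 0.341% in shr-2, with overlap between the genotypes. SS1 supplied 26.3 ± 0.0492% and 27.2 ± 0.838%, without overlap. SS2 supplied 21.4 ± 0.202% and 19.1 ± 1.22%, also without overlap, and SS3 18.4 ± 0.548% and 19.9 ± 1.72%, with overlap.

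SBE2.2 (AT5G03650, chromosome 5, 931762 to 937702, plus strand, 22 exons) and its close relative SBE2.1 encode the branching enzymes that form amylopectin in leaves. SBE2.2 read 23.6 and 25.9 FPKM in Col-0 and 27.3 and 28.3 FPKM in shr-2. It had the smallest log2 fold change of the 10 genes, 0.16, and did not pass (limma, adjusted p = 0.262), with an unadjusted 95% interval from -0.08 to 0.41. SBE2.1 (AT2G36390), outside the 10, read 15.2 and 16.8 FPKM in Col-0 and 27.9 and 27.7 FPKM in shr-2 (log2 fold change 0.76 in limma, adjusted p = 0.00577). The share of SBE2.2 in the sum of this pair was 60.9% and 60.6% in Col-0 and 49.5% and 50.6% in shr-2, so the pair went from unequal to nearly equal levels. The genotypes did not overlap in this share, with the exact permutation p at its smallest possible value of 0.333. The transcripts of the pair are 79.1% identical over 2056 bases.

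**Figure D2:**
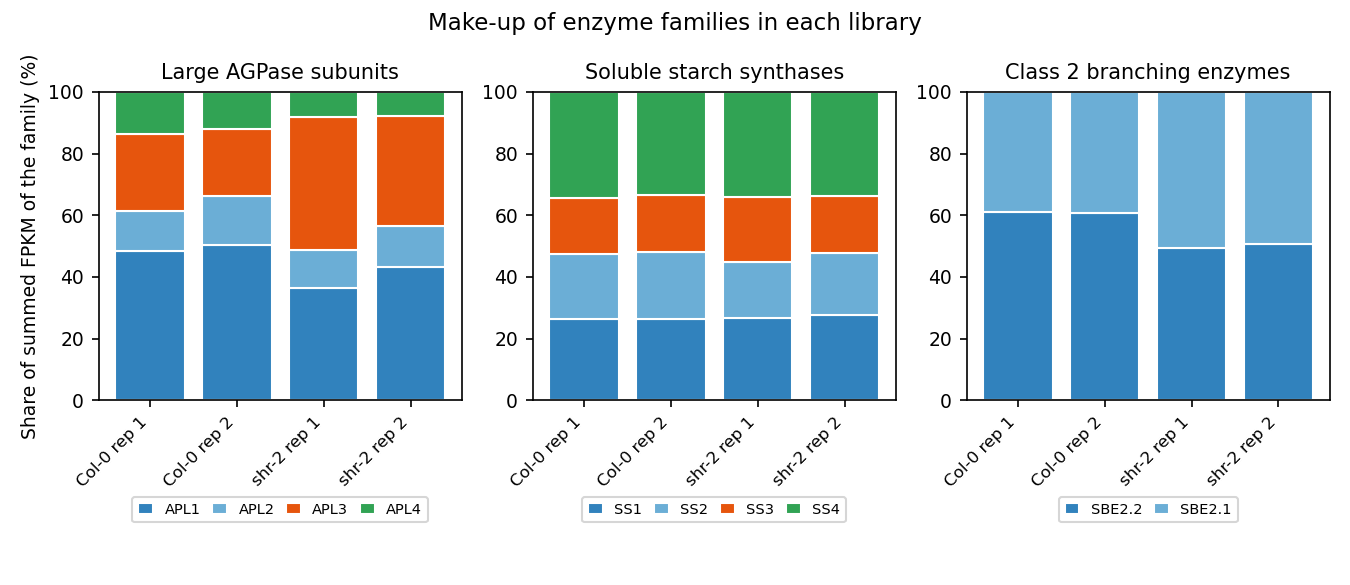
Share (%) of each gene in the summed FPKM of its family, for the 4 large AGPase subunits, the 4 soluble synthases and SBE2.2 with SBE2.1, in each library. The share of APL3 is 35.7% or more in shr-2 and at most 25.2% in Col-0, SBE2.2 goes from at least 60.6% to at most 50.6%, and SS4 is at 33.9% in both genotypes.

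By level per length in Col-0, APL1, ADG1 and SBE2.2 led and their libraries overlapped each other in that order, followed by PGMP, SS4, APL3, SS1, SS2, SS3 and GBSS1. In shr-2 PGMP led, followed by ADG1, and then by APL3 and APL1 at 34.7 ± 6.28 and 34.6 ± 2.53 FPKM, which did not differ beyond their spread. SBE2.2, SS4 and SS1 came next, SS3 and SS2 overlapped at 13.9 ± 1.55 and 13.3 ± 0.513 FPKM, and GBSS1 stayed last. Replicates of a gene spread by 0.569% to 12.0% of their mean in Col-0 and by 0.169% to 18.1% in shr-2, the widest being APL1 in Col-0 and APL3 in shr-2.

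Of 16 other genes of starch synthesis listed and tested, 4 rose, 0 fell and 12 did not pass, with a median log2 fold change of 0.24 (limma). This share is close to the 27.6% of all tested genes that were called in either direction, and above the 13.9% called higher. Whether they differ from the 10 enzymes was not tested. Besides SBE2.1 the genes that rose were ISA2, NTRC and ISA1. ISA1 and ISA2 form the debranching isoamylase that trims amylopectin so that it can crystallise. ISA2 (AT1G03310) rose from 5.59 ± 0.0813 to 10.0 ± 0.438 FPKM (log2 fold change 0.75 in limma, adjusted p = 0.00665). ISA1 (AT2G39930), named because only 4 genes rose, went from 17.3 ± 0.501 to 25.6 ± 0.887 FPKM (log2 fold change 0.54 in limma, adjusted p = 0.0129). It overlaps a non-coding gene on the opposite strand over 1249 bases, and was not called in the authors' deposited table (q = 0.0876). NTRC (AT2G41680), a thioredoxin reductase of plastids known to act on AGPase, rose from 20.4 ± 0.018 to 31.9 ± 1.27 FPKM (log2 fold change 0.62 in limma, adjusted p = 0.00793). ISA1 lost its call with any 1 library left out (limma, adjusted p 0.0512 to 0.0882), ISA2 and NTRC lost theirs without either Col-0 replicate, and SBE2.1 without Col-0 replicate 1. Fewer of the 16 genes, and fewer of all tested genes, rose in each fit with 1 library left out.

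**Figure D3:**
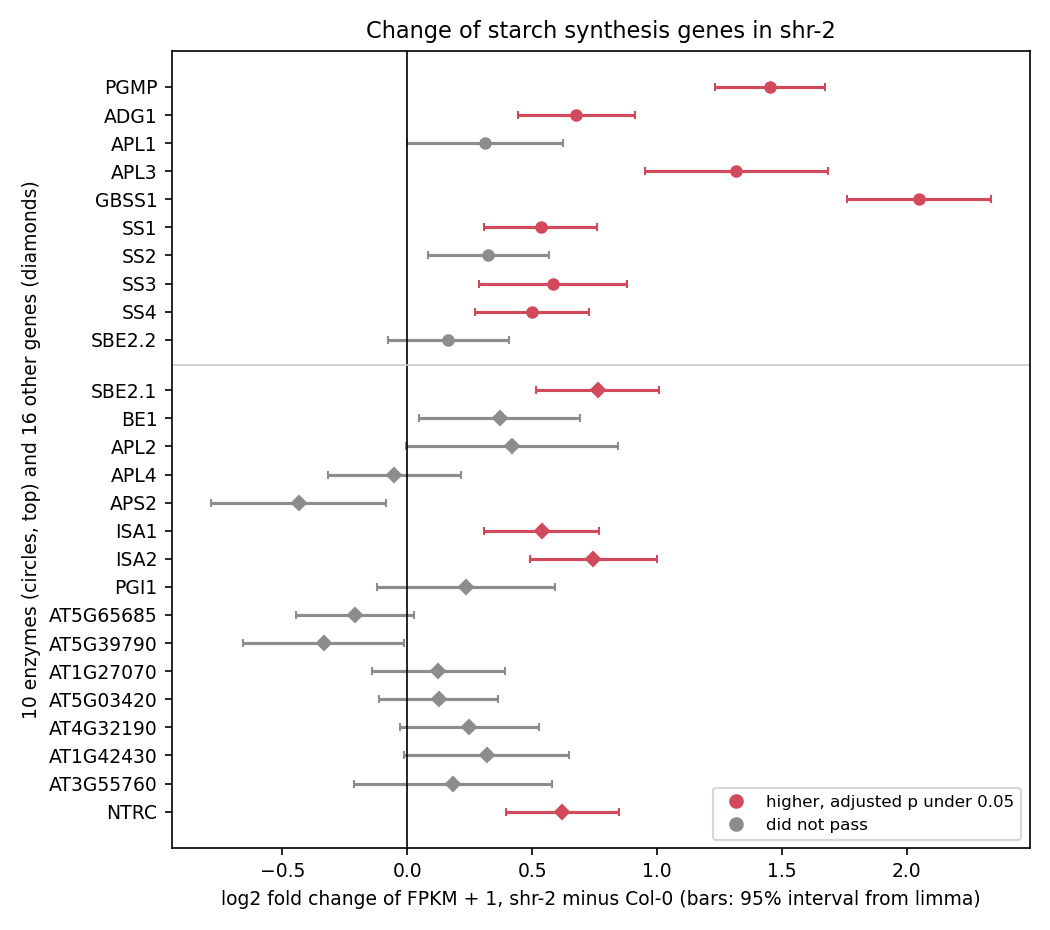
Log2 fold change of FPKM + 1 (shr-2 minus Col-0) with its 95% interval from limma, unadjusted, for the 10 enzymes (circles) and 16 other starch synthesis genes (diamonds), red where the adjusted p was under 0.05 and grey where the gene did not pass. GBSS1 at 2.05, PGMP at 1.45 and APL3 at 1.32 lie apart from the rest, whose values run up to 0.76.

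Of 8 tested transporters of the plastid envelope, which carry carbon and energy in or out, 2 rose, 1 fell and 5 did not pass (median log2 fold change 0.26, limma), where 27.6% of all tested genes were called. NTT2 (AT1G15500, AATP2 in the deposited table), which imports ATP, rose from 95.5 ± 7.0 to 209 ± 28.1 FPKM (limma, adjusted p = 0.00459). TPT (AT5G46110, APE2 in the deposited table), the triose phosphate translocator, rose from 61.0 ± 0.255 to 135 ± 25.7 FPKM (limma, adjusted p = 0.00645). pGlcT (AT5G16150), a glucose transporter that serves export during starch breakdown, fell from 101 ± 8.81 to 71.9 ± 6.10 FPKM (limma, adjusted p = 0.0337). The glucose 6-phosphate translocators GPT1 (48.9 ± 11.3 and 54.0 ± 4.58 FPKM, adjusted p = 0.561) and GPT2 (16.4 ± 0.0176 and 21.7 ± 4.88 FPKM, adjusted p = 0.168), which supply substrate to PGMP in non-green plastids, did not pass in limma and were named after their values were seen. The call of pGlcT was lost with any 1 library left out, that of NTT2 without Col-0 replicate 1, and that of TPT without either Col-0 replicate.

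Of 13 tested genes between sucrose and hexose phosphate, 8 rose, 4 fell and 1 did not pass (median log2 fold change 0.49, limma). Over all tested genes, 13.9% were called higher and 13.7% lower. Sucrose synthases split by isoform. SUS1 (AT5G20830) rose from 3.60 ± 0.192 to 20.9 ± 0.837 FPKM (log2 fold change 2.25 in limma, adjusted p = 0.000398). SUS4 (AT3G43190) rose from 0.650 ± 0.223 to 3.41 ± 0.0772 FPKM (log2 fold change 1.42 in limma, adjusted p = 0.00373). Their ratios of means were 5.82 and 5.24, which the log2 fold change of FPKM + 1 understates, more so for SUS4. SUS5 (AT5G37180) fell from 11.2 ± 1.37 to 6.37 ± 0.373 FPKM (limma, adjusted p = 0.0136), and SUS3 and SUS6, named because only 4 genes fell, went from 10.8 ± 0.697 to 6.95 ± 1.27 FPKM and from 12.7 ± 0.729 to 8.14 ± 0.683 FPKM (limma, adjusted p = 0.0397 and 0.0175). The cytosolic invertase CINV1 (AT1G35580), which splits sucrose without making UDP-glucose, fell from 94.7 ± 3.85 to 49.7 ± 5.01 FPKM (log2 fold change -0.92 in limma, adjusted p = 0.00467). With 1 library left out, fewer of these genes rose and fewer fell, as among all tested genes. SUS1, SUS4 and CINV1 passed in all 4 such fits, SUS3 and SUS5 only without shr-2 replicate 2, and SUS6 only without shr-2 replicate 1.

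Of 20 tested genes of starch breakdown, 14 rose, 1 fell and 5 did not pass (median log2 fold change 0.77, limma). Over all tested genes, 13.9% were called higher and 13.7% lower. As among all tested genes, fewer breakdown genes rose in each fit with 1 library left out. Among them were the cytosolic glucan phosphorylase PHS2, from 10.5 ± 0.157 to 29.1 ± 0.798 FPKM (limma, adjusted p = 0.0011), BAM5, a beta-amylase, from 0.342 ± 0.115 to 3.88 ± 0.156 FPKM (limma, adjusted p = 0.00161), and the glucan, water dikinase GWD1, from 18.6 ± 0.114 to 39.1 ± 0.893 FPKM (limma, adjusted p = 0.00201). The alpha-amylase AMY1 fell, from 5.73 ± 0.855 to 1.71 ± 0.200 FPKM (limma, adjusted p = 0.00412). PHS2 and AMY1 overlap neighbouring genes on the same strand by 35 and 16 bases. LSF1, named for its overlap and counted among the 14 that rose, overlaps AT3G01500 by 343 bases on the same strand. AT3G01500 read 40.6 and 47.1 FPKM in Col-0 and 171 and 268 FPKM in shr-2. Whether its reads entered the value of LSF1 was not tested, and LSF1 was not called in the authors' deposited table (q = 0.280). The summed FPKM of the 10 synthesis enzymes over that of the 21 listed breakdown genes was 0.658 and 0.679 in Col-0, against 0.719 and 0.637 in shr-2. Both sums were higher in shr-2, and their ratio overlapped between the genotypes (exact permutation p = 1.0).

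Some markers of other cell types also moved with the genotype, and others did not. Of 9 markers of photosynthetic tissue, 5 rose, 0 fell and 4 did not pass (median log2 fold change 0.96, limma), where 13.9% of all tested genes rose. Their summed FPKM was 1778 and 1999 in Col-0 and 6390 and 8862 in shr-2, most of it RBCS1A. The authors' deposited table called 8 of the 9 higher, where 12.6% of its tested genes were. LHCB1.2 is 93.6% identical to LHCB1.1 and 91.7% to LHCB1.3 over most of its transcript. LHCB2.1 is 94.3% identical to AT2G05070, so reads of these copies may not have been told apart. Of 7 seed and cotyledon markers, the 5 storage protein and oil body genes did not exceed 0.466 FPKM in any library. The glyoxylate cycle genes ICL and MLS rose (limma, adjusted p = 0.000203 and 0.00022). ICL went from 21.8 ± 3.35 to 720 ± 95.5 FPKM and MLS from 3.48 ± 0.120 to 86.1 ± 15.8 FPKM. The 4 guard cell markers did not pass in limma (median log2 fold change 0.25), with sums of 50.8 and 55.8 FPKM in Col-0 and 66.9 and 56.2 FPKM in shr-2. The part of these tissues in the change of the starch synthesis genes was not tested.

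**Figure D4:**
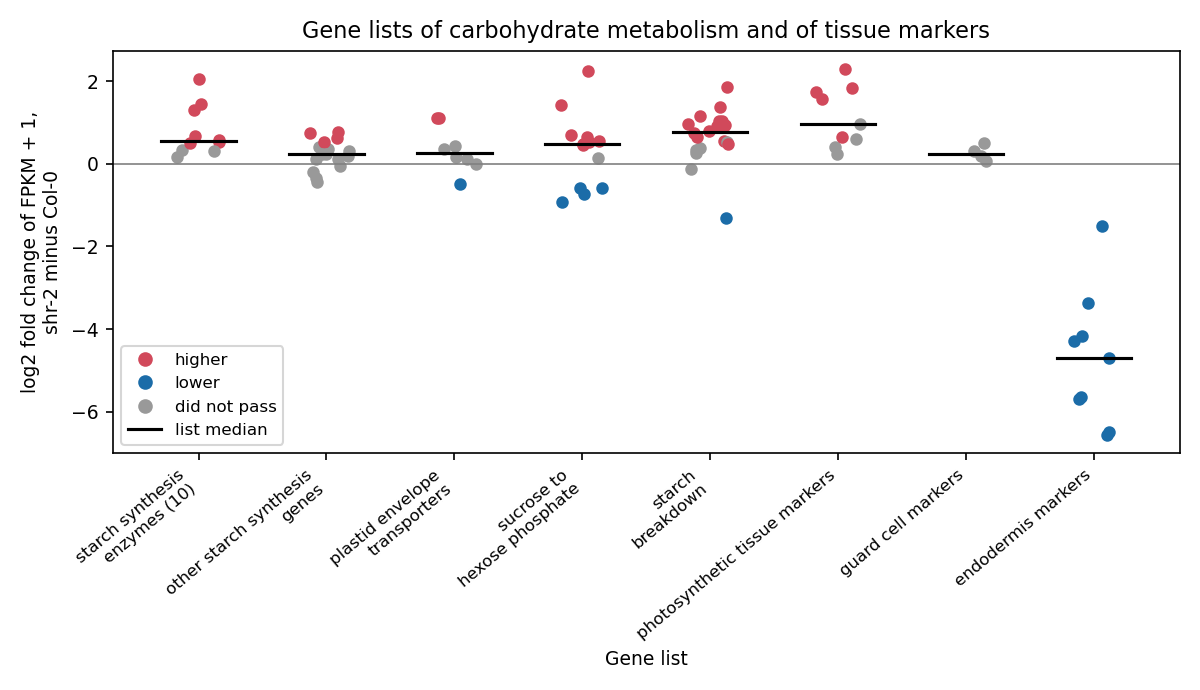
Log2 fold change of FPKM + 1 (shr-2 minus Col-0) of each tested gene of the 10 enzymes, 4 other lists of carbohydrate metabolism and 3 lists of tissue markers, red or blue where called higher or lower by limma, grey where not, with the list median as a black line. The medians are 0.56 for the 10 enzymes, 0.77 for starch breakdown, 0.96 for photosynthetic markers and -4.69 for endodermis markers.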

How the data were processed

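RNA was measured in 2 Col-0 and 2 shr-2 libraries, grouped by their titles. They are described as biological duplicates in the design text. Libraries were made with a TruSeq stranded mRNA kit, per the labels' protocols. Per the submitters' processing notes, the tools were Cuffdiff 2.2.0, TopHat2 2.0.13 and CASAVA 1.8.2 and the genome was TAIR10. Gene models are Araport11 per the file headers. The authors deposited 1 FPKM value for every gene in each library. The deposited table of their own comparison holds mean FPKM, log2 fold change, fold as an unsigned ratio, p-values, q-values and a test score. Tests were made on FPKM only, which do not show a change in total RNA per cell.

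All 32538 genes matched the TAIR10.1 annotation by identifier, and for 99.98% the annotated gene lay within the deposited locus. Coordinates count from 1. Values entered as log2(FPKM + 1), genes averaging under 1 FPKM were dropped, and 1 fit covered all 19920 genes (limma 3.58.1 in R 4.3.3, mean-variance trend, 2-sided, Benjamini-Hochberg adjusted p under 0.05, 2 residual and 3.02 prior degrees of freedom). The script was tested on simulated data. Transcripts were compared with blastn 2.17.0, and none of the members had a near copy (90% identity or more, across 50% or more of the transcript). Members and lists were chosen with earlier results of these data known. All 10 members are named, and from each other pathway list up to 3 called genes with the smallest adjusted p and up to 2 called against the list's majority, with exceptions stated. The 7 listed starch synthesis genes without a name in the sources used here are counted only. Alternatives were other pseudocounts (0.1 and 0.5), filters (none and 5 FPKM), scalings, no trend, a replicate block and leaving out each library.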

Additional observations from a re-analysis of the deposited data

How the results depend on the processing

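The 7 members that rose under the main settings also passed with pseudocounts of 0.1 or 0.5, with no filter, with a common upper quartile, with quantile normalization and without the mean-variance trend. With a mean of at least 5 FPKM the count was 6, because GBSS1 was not tested. Replicate numbers are shared between the genotypes by number only. Deviations of same-numbered libraries correlated across genes at 0.305, and a replicate block in the fit gave 9 members (SS2 and APL1 added), 4486 genes higher and 4243 lower of all tested, against 2778 and 2725 without the block. With 1 library left out, members that rose numbered 3 to 5, all genes higher 964 to 2053 and lower 1094 to 1799. The other lists gave these ranges: other starch synthesis genes higher 0 to 3, transporters higher 0 to 3 and lower 0, sucrose genes higher 2 to 4 and lower 1 to 3, and breakdown genes higher 9 to 13. The cause was not tested beyond the smaller number of libraries. Without the trend, 1 of the other starch synthesis genes, APS2, was called lower (adjusted p = 0.0433). With a mean of at least 5 FPKM, 0 breakdown genes were called lower, because AMY1 was not tested. With no filter, SUS3, CINV2 and ISA3 no longer passed. Among the members and the genes of the 4 other pathway lists, a change of sign occurred only in genes that passed in neither fit. These were APL4 (-0.1094 to 0.0066 with 1 library left out), GPT1 (-0.0769 to 0.3874), PPT1 (-0.2757 to 0.2576) and BAM3 (-0.155 to 0.67), all log2 fold changes. The marker lists were not examined in this way. Among the 12 family shares and ratios, 9 kept their sign in every such fit. The sign changed for 3 whose genotypes overlapped: large over small AGPase subunits (a difference of -0.0559 to 0.0751), SS4 among soluble synthases (-0.5642 to 0.5657 points) and synthesis over breakdown (-0.0313 to 0.0506). With 2 libraries a genotype, smaller changes such as that of SBE2.2 cannot be told from none.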
